A study of Mus musculus with 12 samples.

Results

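The annexins are a family of proteins that bind acidic phospholipids of membranes when calcium rises, and this account covers the 10 family members Anxa1 to Anxa9 and Anxa11 in mouse oral tumours. Every array probe whose platform symbol is one of these 10 genes was taken, which gave 13 probes among 25697. Of the members, 9 had a probe that passed the detection filter, and these 9 were tested among 8420 genes. The family was selected on the log2 intensities of these same tumours, since it was drawn up around Anxa11, which an earlier fit of KHR-NICD against KHR had called. The values of that contrast are therefore given as a description and support nothing about the family.

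Transcripts were measured on Illumina MouseRef-8 v2 bead arrays, which read each transcript as the brightness of short probes on beads, in 6 KHR-NICD and 6 KHR tumours. All 12 were taken 21 days into growth from the offspring of a cross between FVB and C57BL/6 mice. The labels do not spell out KHR, and they give neither the promoter, vector or cell type behind either genotype nor the sex or age of the animals. NICD is the usual short form of the Notch intracellular domain, the released part of a Notch receptor that acts in the nucleus with the DNA-binding protein RBPJ. Whatever KHR stands for is shared by both groups. No label says whether 2 tumours could share a mouse, and p-values therefore reflect only the spread between these 12 samples, which may be partly technical.

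The arrays were alike in quality, with 43.6% to 48.1% of their probes above background and median signals of 140 to 178. All 7 basal and all 10 suprabasal keratinocyte markers on a list were measured in these tumours, whereas all 5 adipocyte markers were detected on 0 arrays. Of 5 T cell markers 0 passed the detection filter. Cd4 and Cd8a were detected on 0 arrays, and Cd3e, Cd3d and Cd3g on some arrays but too few to be kept. Eif2s3y, a gene of the Y chromosome, was detected in KHR-NICD tumours 1 and 4 and KHR tumours 4, 5 and 6, at log2 intensities of 8.18 to 9.11, and not in the other 7 tumours, where it was at most 4.92. The 5 tumours with it and the 7 without it stood apart over many genes, so values are also given by this split.

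Each annexin joins a conserved core, which holds the calcium and lipid binding sites, to an amino-terminal tail of its own that binds partners such as S100 proteins. Through the core they gather on the inner face of a damaged plasma membrane and help to reseal it, organise vesicle traffic, and bind phosphatidylserine where it is exposed. In stratified epithelium several members, among them Anxa1, Anxa2 and Anxa8, are well known products of keratinocytes.

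The promoters of 8 members could be read from RefSeq (assembly GRCm38.p6), in 11 windows of 250 bases before a transcript start. Anxa3 and Anxa6 have no entry. The windows of 4 members are shown because the results below turn on Anxa11, Anxa1 and Anxa8, while Anxa2 barely varied and its window holds every motif searched. Anxa11 lies at chr14:25841905-25842154 on the plus strand, Anxa1 at chr19:20390672-20390921 on the minus strand, Anxa8 at chr14:34085729-34085978 on the plus strand and Anxa2 at chr9:69453433-69453682 on the plus strand. Each is written 5′ to 3′ on the strand of its gene, with matches in capitals.
Anxa11: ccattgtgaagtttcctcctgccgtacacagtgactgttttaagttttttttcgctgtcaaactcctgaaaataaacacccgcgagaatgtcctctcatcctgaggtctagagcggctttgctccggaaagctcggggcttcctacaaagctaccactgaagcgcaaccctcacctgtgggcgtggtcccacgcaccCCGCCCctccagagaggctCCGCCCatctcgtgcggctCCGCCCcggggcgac
Anxa1: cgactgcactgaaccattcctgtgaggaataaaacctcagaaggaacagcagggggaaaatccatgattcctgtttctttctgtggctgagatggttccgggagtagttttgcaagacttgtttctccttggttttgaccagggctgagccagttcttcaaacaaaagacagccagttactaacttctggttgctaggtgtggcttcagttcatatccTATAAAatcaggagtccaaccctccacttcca
Anxa8: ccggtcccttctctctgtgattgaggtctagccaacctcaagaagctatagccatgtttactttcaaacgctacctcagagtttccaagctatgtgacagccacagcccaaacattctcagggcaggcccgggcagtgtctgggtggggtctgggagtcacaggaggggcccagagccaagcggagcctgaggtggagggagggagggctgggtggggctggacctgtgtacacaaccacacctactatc
Anxa2: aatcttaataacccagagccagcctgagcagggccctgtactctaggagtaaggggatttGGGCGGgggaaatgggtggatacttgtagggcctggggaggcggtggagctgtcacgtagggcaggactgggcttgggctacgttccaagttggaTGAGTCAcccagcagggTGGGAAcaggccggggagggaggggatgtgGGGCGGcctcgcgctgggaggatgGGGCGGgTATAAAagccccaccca

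The capitals mark the TATA box TATAAA, the AP-1 motif TGANTCA, the GC box GGGCGG and TGGGAA, the core that RBPJ reads, each searched on both strands, and 0 matches overlapped another motif. Among 32851 promoter windows of the same length, 12.4% hold TATAAA, 6.75% the AP-1 motif, 32.7% the GC box and 21.6% TGGGAA. The Anxa11 window holds 3 GC boxes, all read as CCGCCC near its 3′ end, and none of the other motifs. The Anxa1 window holds 1 TATA box and the Anxa8 window none of the 4 motifs. The Anxa2 window holds 3 GC boxes and 1 match each of the other motifs. These are matches of letters in the reference genome and not measurements in the tumours.

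Anxa11, which carries a long low-complexity tail, takes part in cytokinesis and tethers RNA granules to lysosomes, was lower in KHR-NICD tumours. Its probe read a lowest, median and highest log2 intensity of 10.35, 10.43 and 10.50 in KHR-NICD tumours, against 10.69, 10.88 and 11.21 in KHR tumours. The groups did not overlap, with the KHR-NICD tumours all lower and closer together. The means were 10.43 ± 0.05 in KHR-NICD tumours and 10.92 ± 0.19 in KHR tumours (SD, n = 6 each), a log2 difference of -0.50 (SE 0.089, 95% interval -0.69 to -0.30), or 1.41-fold lower. The bead signal before normalization spanned 1308 to 1507 in KHR-NICD tumours and 1694 to 2733 in KHR tumours. In bulk tissue, fewer cells that make a transcript and less transcript per cell cannot be told apart.

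By limma's test with Benjamini-Hochberg adjustment over 8420 genes, the adjusted p of Anxa11 was 0.0420, which placed it last of the 17 genes called, 0.202% of those tested. Anxa11 was one of 9 genes called lower, 0.107% of the genes tested. Non-overlapping groups occurred in 1.57% of genes and all KHR-NICD values below all KHR values in 0.855%. Since this contrast chose the gene, nothing is read from its place among those shares. Leaving out any 1 of the 12 tumours ended the call, with adjusted p from 0.0537 to 0.125 and log2 differences from -0.54 to -0.44. Testing every kept probe on its own also ended it, at an adjusted p of 0.0667, and so did a term for replicate number, at 0.113. Of 13 lists of cell type markers, 0 had a gene called between the tumour types by limma, and 6 of 63 measured marker genes had an unadjusted p under 0.05, beside 13.9% of all genes. Hair follicle keratins, with a median log2 difference of -0.64, had summed levels from 9.99 to 12.27 in KHR-NICD tumours and from 9.86 to 13.67 in KHR tumours. With their score as a further term, a fit added after seeing the data, Anxa11 stood at -0.55 (adjusted p = 0.0110).

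A second Anxa11 probe lay near background, detected in 0 of 6 KHR-NICD tumours and 2 of 6 KHR tumours, KHR 4 and KHR 6, where it read 5.71 and 5.70. These were also the KHR tumours in which the main probe read highest, 11.21 and 11.07. No fold is given for this probe. Over the 12 tumours, with group means subtracted, the 2 Anxa11 probes had r = 0.71, as a description.

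**Figure D1:**
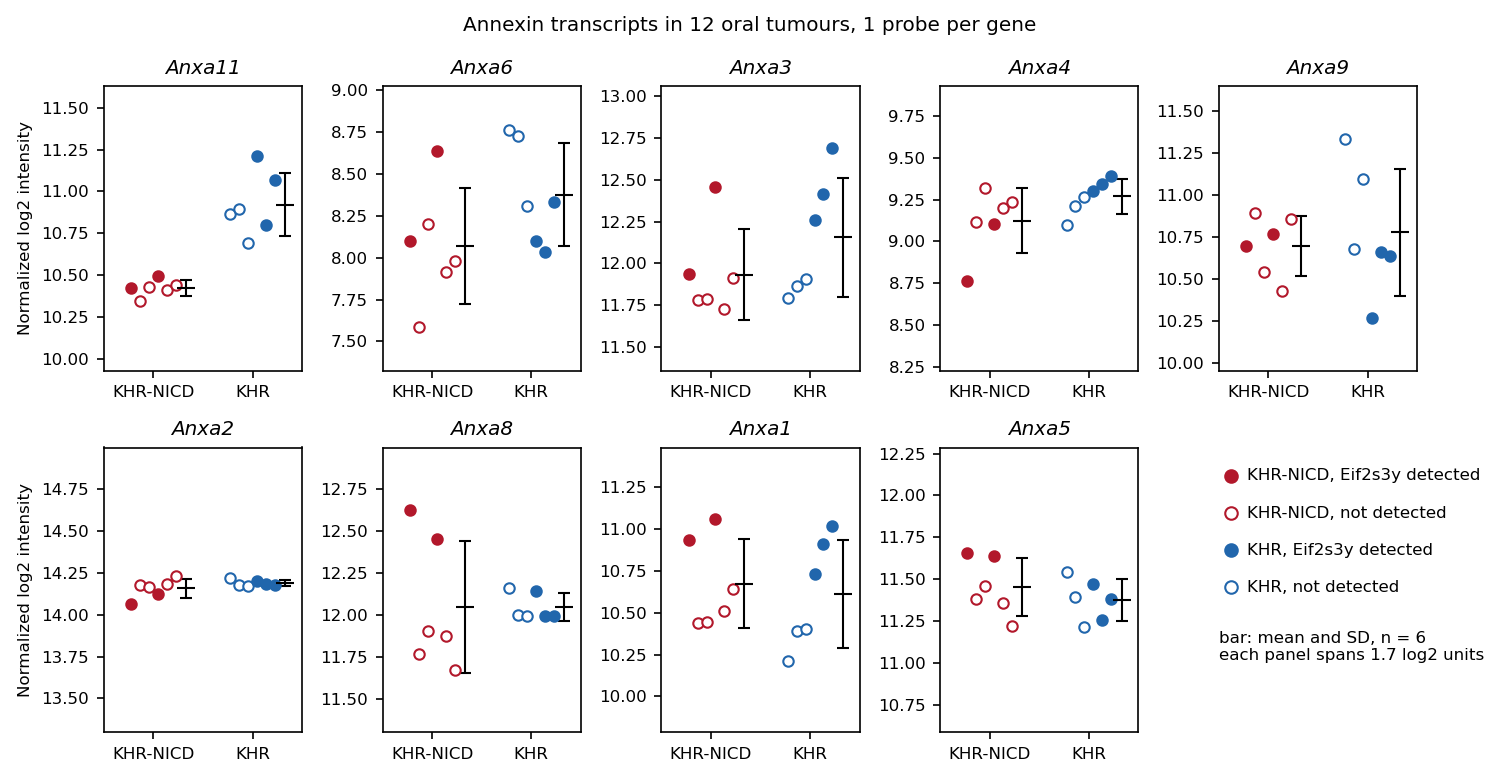
Normalized log2 intensity (y axis) of 9 annexins, 1 probe per gene, in KHR-NICD tumours (left, red) and KHR tumours (right, blue). Filled points are tumours in which Eif2s3y was detected, open points those in which it was not, and bars give the mean and SD of 6 tumours; all panels span the same log2 range. The Anxa11 points do not overlap between the tumour types, while filled and open points separate for Anxa1 and Anxa3.

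The other 8 measured members did not pass the test between the tumour types, and the lowest adjusted p among them was 0.463. Of the 9 measured members, 6 had negative and 3 positive log2 differences, with a median of -0.08 against 0.005 over all genes tested. The median SE over all genes was 0.125, and the intervals of Anxa6 and Anxa3 reach past the -0.50 of Anxa11.

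Among members that act at the cell surface, Anxa1, which is induced by glucocorticoids and signals through formyl peptide receptors to damp inflammation, averaged 10.67 ± 0.27 in KHR-NICD tumours and 10.61 ± 0.32 in KHR tumours (SD, n = 6 each). Its log2 difference was 0.06, with a 95% interval from -0.28 to 0.41. Anxa2, which pairs with S100a10 and gathers plasminogen and its activator at the membrane, read 14.06, 14.17 and 14.23 as lowest, median and highest in KHR-NICD tumours, against 14.17, 14.18 and 14.22 in KHR tumours. The Anxa2 values overlapped and differed by -0.03 (interval -0.16 to 0.10), the narrowest interval of the family. Its raw signal of 16160 to 20630 stood below array maxima of 21249 to 27130, with 45 to 67 brighter probes per array, and any compression of differences at that brightness was not tested. Anxa5, the anticoagulant annexin whose tagged form is used to stain dying cells, averaged 11.45 ± 0.17 in KHR-NICD tumours and 11.38 ± 0.12 in KHR tumours, a difference of 0.08 (interval -0.12 to 0.28).

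Anxa6, an annexin with a duplicated core that brings a Ras GTPase-activating protein to the membrane, had the next largest difference after Anxa11. It read a lowest, median and highest of 7.59, 8.04 and 8.64 in KHR-NICD tumours, against 8.03, 8.32 and 8.76 in KHR tumours. The groups overlapped, since KHR-NICD tumour 4 at 8.64 stood above 4 of the KHR tumours, and the log2 difference was -0.31 (SE 0.17, interval -0.68 to 0.07). Anxa4, an epithelial annexin of vesicle membranes, averaged 9.12 ± 0.19 in KHR-NICD tumours and 9.27 ± 0.10 in KHR tumours, a difference of -0.14 (interval -0.35 to 0.06). KHR-NICD tumour 1 had the lowest Anxa4 value of all 12, at 8.77.

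Anxa3, known from neutrophil granules and as an inhibitor of phospholipase A2, averaged 11.93 ± 0.27 in KHR-NICD tumours and 12.16 ± 0.36 in KHR tumours, a difference of -0.22 (interval -0.59 to 0.14). Its second probe gave -0.18. Anxa8, found on endosomes and in stratified epithelia, averaged 12.05 ± 0.39 in KHR-NICD tumours and 12.05 ± 0.08 in KHR tumours, a difference of 0.001 (interval -0.33 to 0.33). The means were nearly equal although the KHR-NICD tumours spread far more widely. A second Anxa8 probe gave 0.13, and the r between the 2 Anxa8 probes was 0.45, lower than the 0.97 of the 2 Anxa3 probes. Anxa9, a divergent annexin that has lost residues needed to bind calcium, differed by -0.08 (interval -0.43 to 0.26).

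Anxa7, or synexin, a membrane fusion annexin, was detected on 0 arrays and so has no fold. Anxa10 and Anxa13, the annexins outside the member list that the array also carries, were likewise detected on 0 arrays. For all 3, the probe's own failure and a transcript below background cannot be told apart.

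**Figure D2:**
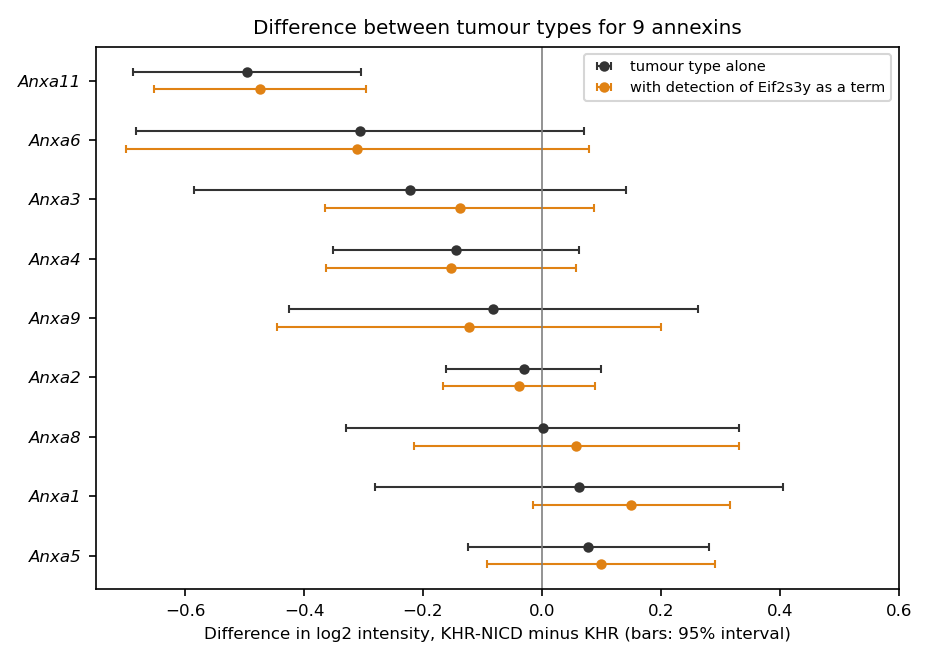
Log2 difference, KHR-NICD minus KHR (x axis), for 9 annexins, with 95% intervals as bars, from tumour type alone (dark) and with detection of Eif2s3y as a second term (orange). The Anxa11 intervals, -0.69 to -0.30 and -0.65 to -0.30, lie below 0, and those of the other 8 members include 0 in both fits.

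With detection of Eif2s3y as a second term, 1 of 9 members was again called between the tumour types, Anxa11 at -0.47 (SE 0.083, limma adjusted p = 0.0239). In that fit 2.57% of all genes were called. Anxa1 moved to 0.15 (SE 0.077) and stayed short of the threshold, at an adjusted p of 0.288.

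The split by Eif2s3y did not choose the members and was tested on them. An earlier look at these same data had found the tumours to differ most along it, so the split is not independent of them. Anxa1 and Anxa3 were both higher in tumours with Eif2s3y. Anxa1 read 10.73, 10.94 and 11.06 as lowest, median and highest in the 5 tumours with Eif2s3y, against 10.21, 10.44 and 10.64 in the 7 without it. No tumour of one set reached the other. With tumour type in the fit the log2 difference was 0.52 (SE 0.078), or 1.44-fold, at an adjusted p of 0.00145 by limma. With a further term for replicate number it was 0.55 and not called (limma adjusted p = 0.0672). That fit called 1.2% of all genes. The Anxa1 difference was 0.49 among KHR-NICD tumours and 0.55 among KHR tumours. Only 2 KHR-NICD tumours had Eif2s3y. Among KHR tumours the split sets numbers 4, 5 and 6 against 1, 2 and 3. Detection of Eif2s3y and anything else that differs between those 2 runs of samples cannot be told apart there.

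Anxa3 read 11.93, 12.41 and 12.69 in the 5 tumours with Eif2s3y, against 11.73, 11.79 and 11.91 in the 7 without it. These sets also did not overlap, though KHR-NICD tumour 1 at 11.93 lay just above the highest value without Eif2s3y. The log2 difference was 0.50 (SE 0.11), or 1.42-fold, at a limma adjusted p of 0.00732, and the second Anxa3 probe gave 0.58 (adjusted p = 0.00556). With the term for replicate number the first probe gave 0.49 and was not called (limma adjusted p = 0.118). The Anxa3 difference was 0.39 among KHR-NICD tumours and 0.60 among KHR tumours, with the same limits as for Anxa1.

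The 2 members called of 9, both higher, stood beside 18.6% of all genes called in either direction and 8.47% called higher, so the count does not set the annexins apart from other genes. The 2 sets did not overlap for 6.38% of genes. The 7 other members were not called. Among them Anxa8 was nearest, at 0.34 (SE 0.13, adjusted p = 0.0818), and Anxa2 was at -0.05. The Anxa8 difference was 0.74 among KHR-NICD tumours and -0.01 among KHR tumours. A second Anxa8 probe gave -0.02 over both tumour types (limma adjusted p = 0.942).

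Markers of other tissues moved with the same split. Of 9 measured skeletal muscle markers 8 were called lower with Eif2s3y, with a median of -1.68, and their summed level on the log2 scale ran from 10.89 to 12.18 with Eif2s3y and from 11.78 to 14.10 without it. Of 6 measured hair follicle keratins 6 were called lower, with a median of -2.10, and their summed level ran from 9.86 to 11.40 with Eif2s3y and from 10.95 to 13.67 without it. With a muscle score in the fit, chosen after seeing the data, Anxa1 stood at 0.49 (adjusted p = 0.141) and Anxa3 at 0.35 (adjusted p = 0.372). With a hair keratin score, also chosen after seeing the data, Anxa1 stood at 0.40 (adjusted p = 0.270) and Anxa3 at 0.32 (adjusted p = 0.503). Both calls were lost with either score, but so were nearly all others, since these fits called 0.0238% and 0.0119% of all genes. The loss is therefore not particular to Anxa1 and Anxa3, and the part of these tissues in the annexin differences was not tested further. Among 5 measured neutrophil markers limma called 2 higher, Ltf at 3.39 (adjusted p = 0.00145) and Csf3r at 0.62 (adjusted p = 0.0125). S100a8, S100a9 and Cxcr2 stood at 0.01, -0.14 and -0.05, and the median was 0.01. Summed levels ran from 14.75 to 15.05 with Eif2s3y and from 14.71 to 14.98 without it. They rest mostly on S100a8 and S100a9, the brightest of the list, and so say little about the others. Mpo, Camp and Ngp were detected on 0 arrays. Basal keratinocyte markers had 1 called higher and 1 lower of 7, and suprabasal markers 3 lower of 10. Endothelial markers had 2 higher of 6, macrophage markers 1 higher of 5, and fibroblast markers 1 higher and 1 lower of 7. Mast cell markers had 1 lower of 2. Smooth muscle and pericyte markers had 0 called of 5, and Schwann cell markers 0 of 1. All these counts stand beside 18.6% of all genes called in either direction. Their part was not tested either.

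**Figure D3:**
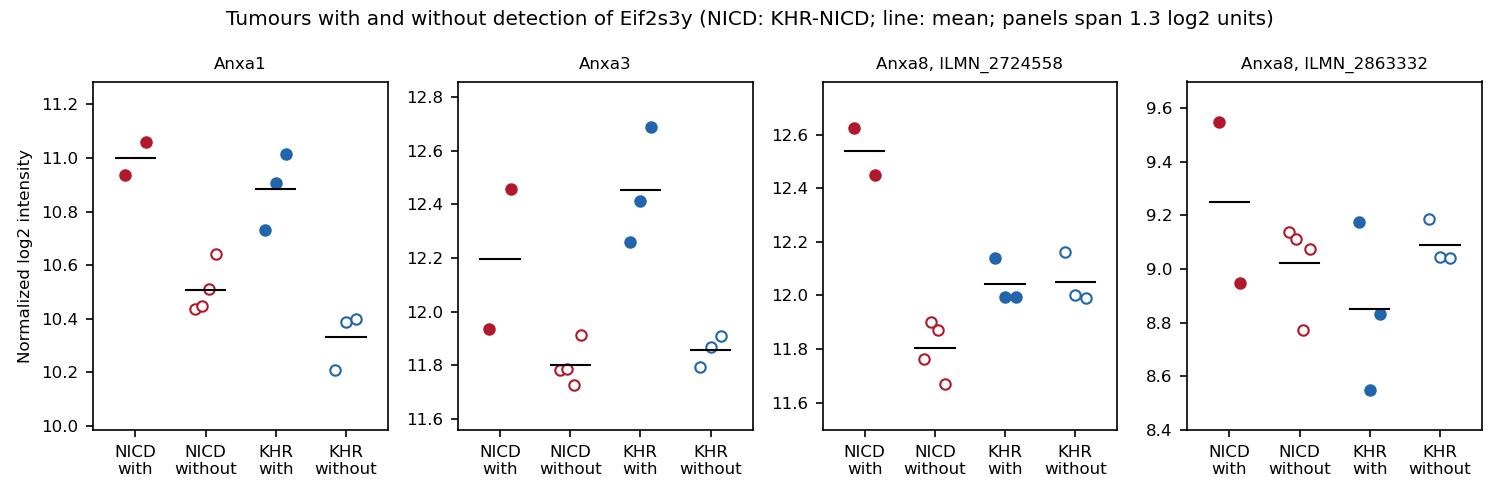
Normalized log2 intensity (y axis) of Anxa1, Anxa3 and the 2 Anxa8 probes in KHR-NICD (red) and KHR (blue) tumours with Eif2s3y detected (filled) or not (open); lines are means and panels span the same log2 range. Anxa1 and Anxa3 lie higher with Eif2s3y in both tumour types, whereas the first Anxa8 probe lies at 12.45 or above in the 2 KHR-NICD tumours with Eif2s3y and at 11.90 or below in the 4 without it.

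The values of the first Anxa8 probe were ordered in opposite ways in the 2 sets, though the test of that difference, given below, did not pass. In tumours with Eif2s3y it read 12.63 and 12.45 in KHR-NICD tumours 1 and 4, against 12.14, 11.99 and 11.99 in KHR tumours 4, 5 and 6. In tumours without Eif2s3y it read 11.76, 11.90, 11.87 and 11.67 in KHR-NICD tumours 2, 3, 5 and 6, against 11.99 to 12.16 in KHR tumours 1, 2 and 3. All KHR-NICD values were thus above all KHR values in the first set and below them in the second. Opposite separation in the 2 sets, in this or the reverse order, was shown by 2.13% of genes.

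The difference between those 2 differences was 0.75 on the log2 scale (SE 0.15, interval 0.42 to 1.07), with a limma p of 0.000337 and an adjusted p of 0.0606 over all genes, short of the threshold. The second Anxa8 probe gave 0.46 (adjusted p = 0.382). In the tumours with Eif2s3y that probe read 9.55 and 8.95 in KHR-NICD tumours, against 8.55 to 9.18 in KHR tumours, so the groups overlapped there. That set holds only 2 KHR-NICD tumours. In the tumours without Eif2s3y the second probe read 8.77 to 9.14 in KHR-NICD tumours and 9.04 to 9.19 in KHR tumours, which also overlapped. None of the 9 members was called in this interaction, against 0.285% of all genes. At an unadjusted p under 0.05, limma held 3 of the 9, which were Anxa8, Anxa6 and Anxa4, beside 17.9% of all genes. The interaction terms of Anxa6, Anxa9 and Anxa4 were 0.89 (adjusted p = 0.138), 0.57 (adjusted p = 0.288) and -0.44 (adjusted p = 0.181).

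Each set is a subset of the contrast that chose the family, so the calls within it are a description from which nothing is read about the members. Within the tumours with Eif2s3y, limma called Anxa8 at 0.50 (adjusted p = 0.0385) and Anxa11 at -0.56 (adjusted p = 0.0349), 2 of 9 members, beside 3.85% of all genes. Anxa4 at -0.41 (adjusted p = 0.0736) and Anxa5 at 0.28 (adjusted p = 0.201) were not called. These were the 4 members with an unadjusted p under 0.05 there, beside 22.7% of all genes. Within the tumours without it, 0 of 9 were called, beside 0.380% of all genes, with Anxa11 at -0.41 (adjusted p = 0.0906), Anxa6 at -0.68 (adjusted p = 0.0922) and Anxa8 at -0.25 (adjusted p = 0.193), the 3 members with an unadjusted p under 0.05, beside 19.3% of all genes. The interaction of Anxa11 was -0.15 (interval -0.51 to 0.20), so a difference between the sets was not shown for it.

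The members also varied together to different degrees. After subtracting the mean of each tumour type, r over the 12 tumours was above 0 for 21 of 36 pairs of members. Anxa1 and Anxa3 had the highest r, 0.93, and 0.76 once the Eif2s3y sets were centred as well. Anxa5 and Anxa8 had r = 0.85, and 0.76 after that centring. The most negative value was -0.84 between Anxa2 and Anxa8, which became -0.31 after that centring. Centring also turned the sign for Anxa1 with Anxa8, where r was 0.47 before it and -0.84 after it. Tumours share their array, tissue makeup and normalization across genes, so these values describe the 12 tumours only.

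**Figure D4:**
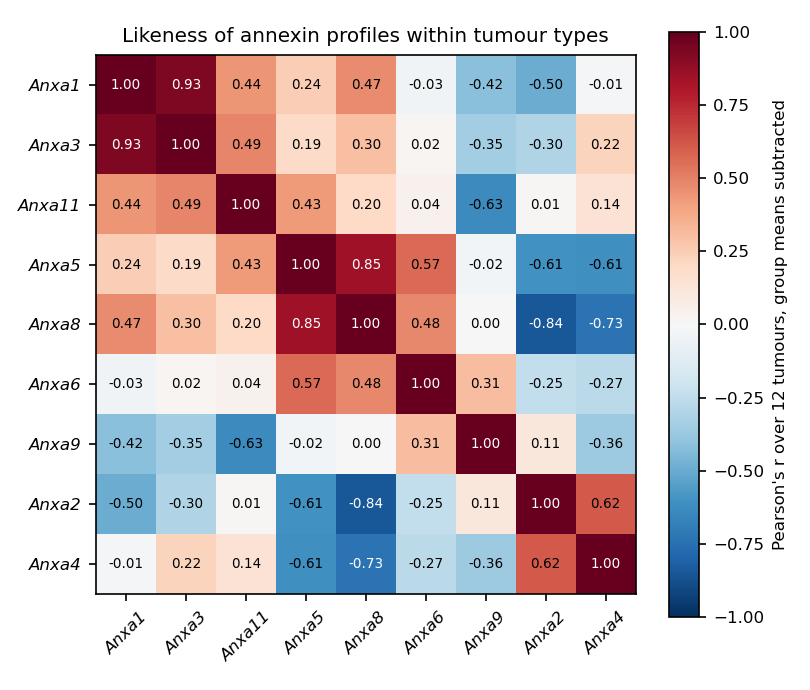
Pearson's r between each pair of 9 annexins over 12 tumours, after subtracting the mean of each tumour type; colour and number give r. Anxa1 with Anxa3 (0.93) and Anxa5 with Anxa8 (0.85) are highest, and Anxa2 with Anxa8 (-0.84) is lowest.

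For Anxa11 the genes with the highest r of this kind were Lamc1 at 0.89, Elmo2 at 0.89, Nupr1 at 0.87, Ripk3 at 0.86 and Wrn at 0.85. For Anxa6 they were Mlf2 at 0.90, C1qb at 0.89, Abcb8 at 0.89, Mrpl33 at 0.89 and Pla1a at 0.88. For Anxa3 they were Dcps at 0.96, Gart at 0.94, Nudc at 0.93, Anxa1 at 0.93 and Krt90 at 0.93. Once the Eif2s3y sets were centred as well, these r ran from 0.77 to 0.95 for Anxa11. They ran from 0.77 to 0.82 for Anxa6 and from 0.68 to 0.90 for Anxa3. All were picked as the highest among 8420 genes over only 12 tumours, and they were not set against chance.

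Genes that work with annexins were taken from lists and read in the same fit of KHR-NICD against KHR, in which limma called none of their 34 measured genes and 4 had an unadjusted p under 0.05, beside 13.9% of all genes. Of 6 S100 partners 5 were measured, with a median log2 difference of 0.03. S100a10, the partner of Anxa2, averaged 9.58 ± 0.36 in KHR-NICD tumours and 9.19 ± 0.22 in KHR tumours, a difference of 0.39 (SE 0.16, adjusted p = 0.299), while S100a11, the partner of Anxa1, differed by -0.04. S100a4 differed by 0.07 and S100a1 by -0.15.

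Of 6 other binding partners 5 were measured, with a median of -0.21. Ahnak, a giant scaffold that binds Anxa2 with S100a10, averaged 13.19 ± 0.11 in KHR-NICD tumours and 13.41 ± 0.10 in KHR tumours (difference -0.21, adjusted p = 0.248). Sri, or sorcin, which binds Anxa7, differed by -0.27, the related calcium sensor Pef1 by 0.15, and Rasa1, the Ras GTPase-activating protein that Anxa6 brings to membranes, by 0.14. Pdcd6, the calcium sensor that binds Anxa11, was detected on 0 arrays. Fpr2, a receptor for Anxa1, was the single measured gene of 6 on the list of formyl peptide receptors and cytosolic phospholipase A2. It averaged 6.96 ± 0.92 in KHR-NICD tumours and 7.61 ± 0.55 in KHR tumours, a difference of -0.65 (SE 0.38, adjusted p = 0.472), and Pla2g4a was detected on 0 arrays.

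On the plasminogen activation list 4 of 9 genes were measured, with a median of -0.24. Plgrkt, a membrane receptor for plasminogen, stood at 0.25 (adjusted p = 0.189), and Plau, the urokinase activator, at -0.38 (adjusted p = 0.386). Plaur, the receptor of urokinase, and Serpinb2, an inhibitor of urokinase, both stood at -0.24. Of 10 plasma membrane repair genes 7 were measured, with a median of -0.07, among them the calpain subunits Capns1 at -0.25 and Capn2 at -0.24, the caveolar protein Cav1 at 0.18 and Vps4a, the ATPase that recycles membrane-sealing filaments, at -0.09.

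Of 11 genes for phosphatidylserine exposure and binding 6 were measured, with a median of -0.09, and the scramblase family members Plscr4, Plscr3 and Plscr1 stood at 0.31, -0.15 and -0.12, beside Gas6, a bridging ligand, at -0.15. Of 8 RNA granule and lysosome genes 6 were measured, with a median of 0.11. Caprin1, a stress granule protein, averaged 9.25 ± 0.20 in KHR-NICD tumours and 8.94 ± 0.08 in KHR tumours (difference 0.31, adjusted p = 0.163). The RNA-binding proteins Tia1 and Tardbp stood at 0.16 and 0.14 and the lysosomal membrane protein Lamp1 at 0.07. Across these lists, differences with both signs stood beside the lower Anxa11.

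**Figure D5:**
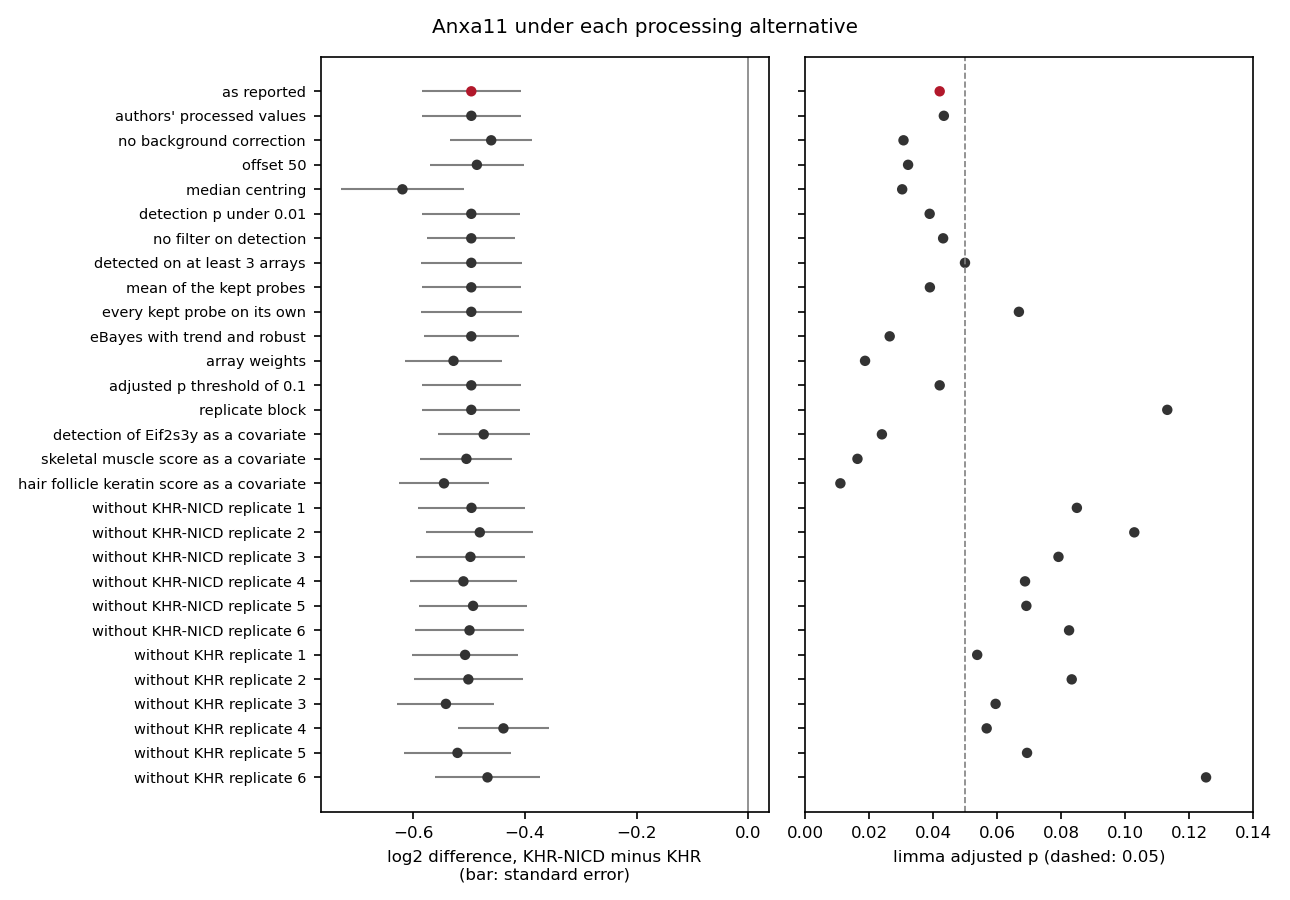
Log2 difference of Anxa11, KHR-NICD minus KHR, with its standard error (left) and its limma adjusted p (right, threshold dashed) as reported and under 28 alternatives. The difference stays between -0.62 and -0.44, while the adjusted p runs from 0.0110 to 0.125 and lies above the threshold whenever 1 tumour is left out.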

How the data were processed

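Total RNA of 6 KHR-NICD and 6 KHR tumours, grouped and numbered by the labels, was measured with 1 array per tumour. The authors deposited the mean bead intensity of each probe before any normalization, with a detection p-value that sets each probe against its array's background, per the file headers. Intensity values that the authors processed were also deposited and served as an alternative. Their scale is not stated, and since some are negative they were read as linear, background-subtracted values. GenomeStudio and Partek appear in the submitters' processing notes. Their versions and steps were not given in the sources used here.

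Intensities were background-corrected and quantile-normalized to log2 values by the neqc function (limma 3.58.1, R 4.3.3, offset 16). Probes with a detection p under 0.05 on at least 6 of 12 arrays were kept, 11721 in all, and the probe with the highest mean stood for each of 8420 genes. Platform annotation named 1 gene for 23978 probes and did not list 1719. KHR-NICD minus KHR was fitted with lmFit and eBayes without a block, with Benjamini-Hochberg adjustment at 0.05. Detection of Eif2s3y (detection p under 0.05) was added as a second term, alone and with its interaction with tumour type. Only the fit of tumour type alone was tested on simulated data, with a pass mark for recovery set at a change larger than that of Anxa11. The fits with Eif2s3y were not simulated. Precision is limited by the number of arrays. Likeness is Pearson's r after subtracting group means, given without p. A list's summed level is the log2 of its members' summed linear values.

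Members, gene lists and tests were chosen with earlier results of these data known. The text names all members, up to 4 genes per pathway list by smallest p, and for Anxa11 and the 2 other members with the largest differences the 5 most alike genes. Alternatives were the processed values, other background, scaling and detection settings, probe choice, variance models, array weights, a replicate block, covariates and leaving out each tumour.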

Additional observations from a re-analysis of the deposited data

Results flagged for a closer look

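Anxa3 in KHR-NICD tumour 4, at a log2 intensity of 12.46, stood apart from the other 5 KHR-NICD tumours, which ran from 11.73 to 11.93. Its gap to the nearest of them was 0.716 of the group's whole range; that share is above Dixon's 95% critical value for 6 samples. It was 1 of 18 groups examined, and chance flags about 1 in 20. Eif2s3y was detected in that tumour, as in KHR-NICD tumour 1 at 11.93.

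For the first Anxa8 probe, the KHR-NICD minus KHR difference had opposite signs in the tumours with and without Eif2s3y, with every tumour on its side. The difference between them was 0.745 on the log2 scale and did not pass the limma test over all genes (adjusted p = 0.0606). On the second Anxa8 probe the tumour types overlapped in both sets.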

How the results depend on the processing

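Under 28 alternatives the log2 difference of Anxa11 stayed between -0.62 and -0.44 and its adjusted p ran from 0.0110 to 0.125. It remained called under 14 of them. Of these, the threshold of 0.1 is the same fit with a looser cutoff and could not end the call. The authors' processed values nearly repeat the main ones, at -0.4961 against -0.4962. The count of annexins called between tumour types went to 0 with every kept probe on its own, with the replicate block (Anxa11 adjusted p = 0.113), and in each fit without 1 tumour (0 to 0 of 9). Over all genes those fits called 8, 1 and 1 to 24, against 17 as reported. Deviations of same-numbered tumours correlated from -0.221 to 0.454. Numbers 1, 5 and 6, whose tumours differ in detection of Eif2s3y, gave -0.221, -0.183 and -0.205. Numbers 2, 3 and 4, whose tumours share it, gave -0.037, 0.283 and 0.454. The check is mixed with that split and cannot decide whether the numbers pair the samples. Annexins called by detection of Eif2s3y went to 0 with the muscle score, the hair keratin score and the replicate block (Anxa1 adjusted p = 0.0672, Anxa3 adjusted p = 0.118), fits that called 2, 1 and 101 of all genes against 1566 as reported. They numbered 2 to 3 without 1 tumour; the 3 arose without KHR tumour 1, where Anxa8 stood at 0.41 (adjusted p = 0.0466).

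Signs turned for members that were not called. Under median centring, which moved the median of all genes to -0.08, Anxa1 stood at -0.060, Anxa5 at -0.059 and Anxa8 at -0.13. With array weights Anxa1 stood at -0.13, Anxa8 at -0.11 and Anxa9 at 0.0059. With the muscle score Anxa8 stood at -0.0080, and with the hair keratin score Anxa1 at -0.076, Anxa8 at -0.058 and Anxa9 at 0.010. Without 1 tumour, Anxa1 ran from -0.017 to 0.14, Anxa8 from -0.11 to 0.076 and Anxa9 from -0.18 to 0.030. The cause of these changes was not tested.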
